A study of Mus musculus with 19 samples.

Results

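Matrix metalloproteinases (MMPs) and their tissue inhibitors (Timps) were followed as a named set of 9 genes, Mmp3, Mmp8, Mmp9, Mmp10, Mmp12, Mmp13, Mmp14, Timp1 and Timp3. They were taken by symbol from a table of RNA levels that holds 24689 genes, and all 9 were found and tested. The table comes from a study of how active YAP and the papillomavirus oncogenes E6-E7 change oral epithelium in mice, and it gives polyA RNA sequencing of tongue epithelium from 19 animals. Levels are transcript abundances in TPM, a unit corrected for gene length and for the depth of each library.

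All tetON transgenes lie behind Krt14-CreERT, a tamoxifen-activated Cre of basal epithelial cells, which opens LSL-rtTA, a doxycycline-dependent activator. The E group (5 mice) carried Krt14-CreERT, LSL-rtTA and tetON_E6-E7. In the Y group (3 mice) tetON_YAP1S127A, a YAP that escapes inhibition by phosphorylation, took the place of tetON_E6-E7, and the EY group (6 mice) had E6-E7 and YAP1S127A. The N group (5 mice) served as control, with Krt14-CreERT and LSL-rtTA in mice 1 to 3, LSL-rtTA without Cre in mouse 4, and Krt14-CreERT, E6-E7 and YAP1S127A but no rtTA in mouse 5. The methods of the study also give every group a tetON_H2B-GFP reporter, which the sample labels do not list. Mice received tamoxifen in the tongue and doxycycline in the chow, were littermates of 8 to 16 weeks balanced for age and sex, and gave tissue on day 15 after induction. The background strain is not stated. The transgenes are induced in Krt14-expressing epithelium and its descendants, and not in immune and stromal cells that come along with the sheet. The sheet was loosened with collagenase and dispase and microdissected from muscle before RNA was extracted.

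MMPs are zinc-dependent endopeptidases that cut collagens, laminins, elastin and other matrix proteins, as well as cytokines and receptors at the cell surface. Most are secreted as inactive zymogens, and Timps bind and block the active enzymes. In oral mucosa they take part in wound repair and in the invasion of carcinomas, and they are made by epithelial cells, fibroblasts, macrophages and neutrophils.

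The values of a mouse rest on 8269674 to 11007304 reads. Several members lay near the limit of this depth. A median mouse had 4 reads of Mmp10, 6 of Mmp8, 14 of Timp1, 16 of Mmp13, 18 of Mmp9 and 25 of Mmp3, against 99 of Timp3, 163 of Mmp12 and 544 of Mmp14. In a mouse of median depth, 1 read equals 0.0638 TPM of Mmp8, 0.0591 TPM of Mmp13 and 0.140 TPM of Timp1. Differences are given as log2 fold changes of TPM after adding 0.1 TPM, which understates the change of a gene with a low level. A gene was called when its adjusted p (limma, Benjamini-Hochberg over 22745 genes) was below 0.01 and its log2 fold change was above 1 or below -1.

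Mouse 1 of the N group stood apart from its group. It had the highest N level of 8 members, the exception being Mmp8, and it also had the highest summed level of macrophage markers of the 19 mice, 839 TPM. Mouse 3 of the EY group had the highest level of Mmp3, Mmp13, Mmp14 and Timp3 of the 19 mice and the highest summed level of skeletal muscle markers, 1194 TPM. Several results are also given without these mice.

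**Figure D1:**
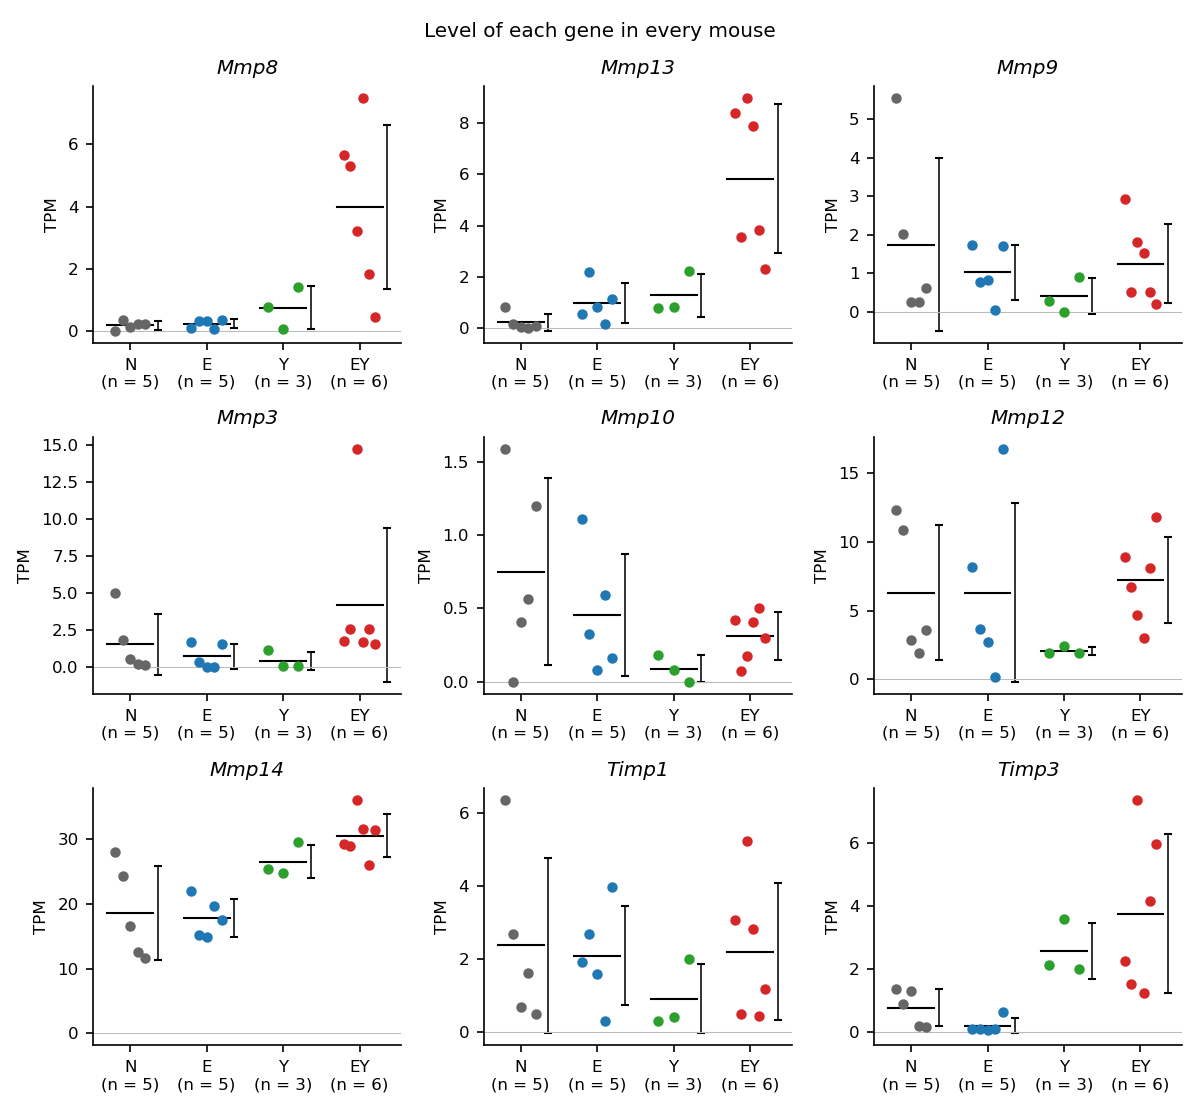
Level of each of the 9 members in TPM (vertical axes) in every mouse (points) of the N, E, Y and EY groups, with the group mean as a line and the SD as a bar. The Mmp8 and Mmp13 points of EY lie above every N and E point, and Mmp9, Mmp10 and Timp1 of EY lie within the N range or below it.

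Mmp13 and Mmp8 are the secreted collagenases among the members, enzymes that make the first break in the triple helix of fibrillar collagen. Mmp13 measured 0.843, 0.162, 0.0591, 0 and 0.103 TPM in N mice 1 to 5. In E mice it measured 0.557, 2.22, 0.853, 0.185 and 1.16 TPM, and in Y mice 0.800, 0.822 and 2.23 TPM. The EY mice ranged from 2.30 to 8.98 TPM around a median of 5.86 TPM. Every EY mouse was above every mouse of the other groups, and N mouse 1 was the only N mouse within the range of the E and Y mice. Group means were 5.83 ± 2.91 TPM (SD, n = 6) for EY and 0.233 ± 0.346 TPM (SD, n = 5) for N. Mmp13 was called higher in EY than in N, with a log2 fold change of 4.46 (95% confidence interval 3.21 to 5.70, limma adjusted p 9.26e-06).

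The same gene was called against E, at 2.58 (1.34 to 3.83, limma adjusted p 0.00217), although with a pseudocount of 0.01 TPM in place of 0.1 the adjusted p by limma was 0.0182 and over all alternatives it lay between 0.000300 and 0.0182. Against Y the log2 difference was 2.08 (0.62 to 3.53), with all 6 EY mice above all 3 Y mice, and the limma adjusted p of 0.0715 missed the threshold. Each transgene on its own went with a higher mean than in N. In Y against N the log2 fold change was 2.38 (limma adjusted p 0.0293), not called with all mice. Without N mouse 1 it was 2.87 and called (limma adjusted p 0.00637, range over the alternatives 0.00637 to 0.160). In E against N it was 1.87 (limma adjusted p 0.123), with 3 of 5 E mice above all N mice.

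Mmp8, the collagenase stored in neutrophil granules, measured 0, 0.351, 0.128, 0.245 and 0.221 TPM in N mice 1 to 5. The E mice had 0.109, 0.323, 0.329, 0.0667 and 0.375 TPM and the Y mice 0.791, 0.0633 and 1.43 TPM. In EY the level ran from 0.472 TPM in mouse 6 to 7.49 TPM in mouse 4, with a median of 4.25 TPM. All EY mice were above all N and E mice, and 5 of 6 were above all Y mice. Mmp8 was called higher in EY than in N at a log2 fold change of 3.58 (2.16 to 5.00, limma adjusted p 0.000313) and higher than in E at 3.30 (1.88 to 4.72, limma adjusted p 0.000841). Against Y it differed by 2.35 (0.69 to 4.00, limma adjusted p 0.0738), which was not called, and leaving out 1 mouse at a time moved this value from 1.40, without Y mouse 2, to 3.02, without Y mouse 3. The Y and E groups did not pass the threshold against N, with log2 fold changes of 1.23 (0.57 to 2.18 with 1 mouse left out) and 0.28.

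Mmp13 and Mmp8 lie in a cluster with Mmp12, Mmp3 and Mmp10 on chromosome 9. In the order of the RefSeq table the genes run Mmp13, Mmp12, Mmp1b, Mmp3, Mmp1a, Mmp10, the long noncoding Gm31751 and Mmp8, so that the 5 members are among 8 genes, 7 of them protein-coding. Mmp9 is on chromosome 2, Timp3 on 10, Mmp14 on 14 and Timp1 on X. A promoter of 300 bases, 250 before the start of the gene and 50 after it, was held for 8 of the 9 members in the RefSeq promoter table (GRCm38.p6), with a pair of entries for Mmp12 and 9 promoters in all. Mmp9 had no entry.

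The promoters of the 3 genes called in EY against N, Mmp13, Mmp8 and Timp3, are printed here together with those of Mmp3 and Mmp10, cluster neighbours that were not called. Capitals mark matches to TGANTCA, the letters bound by AP-1, to TATAAA, the TATA box, and to GGAATG, the letters bound by TEAD factors, the partners of YAP, each searched on both strands. All are on the + strand, Mmp13 at chr9:7272264-7272563, Mmp3 at chr9:7445572-7445871, Mmp10 at chr9:7502092-7502391, Mmp8 at chr9:7558179-7558478 and Timp3 at chr10:86300162-86300461.
Mmp13: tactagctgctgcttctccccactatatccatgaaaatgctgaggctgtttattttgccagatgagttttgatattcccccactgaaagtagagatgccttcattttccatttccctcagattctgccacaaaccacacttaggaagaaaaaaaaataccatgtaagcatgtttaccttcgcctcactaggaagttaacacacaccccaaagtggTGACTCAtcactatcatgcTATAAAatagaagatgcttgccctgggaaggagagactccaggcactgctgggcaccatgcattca
Mmp3: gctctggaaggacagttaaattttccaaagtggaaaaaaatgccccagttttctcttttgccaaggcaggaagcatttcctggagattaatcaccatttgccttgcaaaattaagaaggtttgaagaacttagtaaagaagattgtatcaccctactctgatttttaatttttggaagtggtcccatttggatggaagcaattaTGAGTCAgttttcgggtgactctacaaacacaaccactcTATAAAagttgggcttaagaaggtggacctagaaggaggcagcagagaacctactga
Mmp10: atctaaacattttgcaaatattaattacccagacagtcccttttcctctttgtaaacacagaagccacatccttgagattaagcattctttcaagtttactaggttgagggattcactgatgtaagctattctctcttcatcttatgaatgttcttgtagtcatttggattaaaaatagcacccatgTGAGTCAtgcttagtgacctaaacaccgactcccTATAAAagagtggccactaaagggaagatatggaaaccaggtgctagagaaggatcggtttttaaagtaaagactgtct
Mmp8: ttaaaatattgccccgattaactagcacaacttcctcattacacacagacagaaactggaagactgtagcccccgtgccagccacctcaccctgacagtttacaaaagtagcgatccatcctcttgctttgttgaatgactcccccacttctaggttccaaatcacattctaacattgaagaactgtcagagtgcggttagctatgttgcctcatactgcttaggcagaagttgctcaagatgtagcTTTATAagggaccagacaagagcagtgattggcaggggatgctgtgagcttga
Timp3: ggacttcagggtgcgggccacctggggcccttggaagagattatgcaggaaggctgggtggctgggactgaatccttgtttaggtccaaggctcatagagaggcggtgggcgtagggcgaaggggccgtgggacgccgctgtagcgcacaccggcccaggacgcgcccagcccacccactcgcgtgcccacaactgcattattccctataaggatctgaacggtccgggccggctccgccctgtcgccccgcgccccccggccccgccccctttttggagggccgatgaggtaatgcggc

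TGANTCA was found in 4 of the 9 promoters, those of Mmp13, Mmp3, Mmp10 and the second of Mmp12, and in 7.81% of 32851 promoters of the same length. It begins 35 bases before the start of Mmp13, 46 before that of Mmp3, 63 before that of Mmp10 and 44 before that of Mmp12. TATAAA was found in 5 of the 9, these 4 and that of Mmp8, where it is on the other strand and reads TTTATA, against 13.6% of all. This match begins 29 bases before the start of Mmp10, 16 before that of Mmp13, 7 before that of Mmp3 and 3 before that of Mmp8. In the second promoter of Mmp12 it begins 4 bases after the start. GGAATG was found in 1 of the 9, that of Timp1, against 14.7% of all. The Timp3 promoter shown holds none of these letters, nor do those of Mmp14 and the first of Mmp12. A match is a description of the letters and not a bound site, and Mmp13, which was called, and Mmp3 and Mmp10, which were not, hold the same pair of motifs.

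Mmp9, the gelatinase of the set, cuts denatured collagen and basement membrane collagen and is made by macrophages and neutrophils among other cells. It ranged from 0.255 to 5.56 TPM in N, 0.0444 to 1.74 TPM in E, 0 to 0.910 TPM in Y and 0.196 to 2.92 TPM in EY. The highest of all 19 values was that of N mouse 1. The log2 difference of EY from N was -0.01 (-1.86 to 1.84, limma adjusted p 0.994). The sign depended on the setting, as the difference was 0.02 with a pseudocount of 0.01 TPM, 0.61 without N mouse 1 and -0.68 with N mice 1 to 3 alone. The log2 fold change of Mmp9 in Y against N was -1.59 (-3.82 to 0.64), not called. It was -0.97 without N mouse 1, and leaving out each mouse in turn gave -2.38 to -0.71.

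The stromelysins Mmp3 and Mmp10 cut proteoglycans, laminin and fibronectin and activate other MMP zymogens. Mmp3 measured 4.99, 1.79, 0.504, 0.194 and 0.164 TPM in N mice 1 to 5, and 1.67, 0.319, 0, 0 and 1.54 TPM in E mice 1 to 5. The Y mice had 1.14, 0.0626 and 0.0643 TPM. In EY the range was 1.57 to 14.8 TPM with a median of 2.18 TPM. The value of EY mouse 3 was far above the other EY values, all EY mice were above all Y mice, and only EY mouse 3 was above all N mice.

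Against Y, Mmp3 had the largest log2 difference of the 9 members, 3.18 (0.78 to 5.58), and was not called (limma adjusted p 0.0952). With 1 mouse left out this value ran from 2.69 to 4.16. Against E the difference was 2.81 (limma adjusted p 0.0319) and against N 1.77 (-0.28 to 3.83, limma adjusted p 0.161), not called either. Leaving out EY mouse 3 took the EY against N value to 1.30 and leaving out N mouse 1 took it to 2.42, while with N mice 1 to 3 alone it was 0.70. Mmp10 stayed low, at up to 1.59 TPM in N, 1.11 TPM in E, 0.183 TPM in Y and 0.501 TPM in EY. No EY or Y mouse was above the N median of 0.561 TPM. The log2 fold change was -0.64 (-2.01 to 0.73) in EY and -1.78 (-3.43 to -0.13, limma adjusted p 0.138) in Y against N, and neither was called. Leaving out 1 mouse at a time, these values of Mmp10 ran from -1.29, without N mouse 2, to -0.27, without N mouse 1, and from -2.43 to -1.39.

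Mmp12, the macrophage metalloelastase, was the second most abundant of the 7 MMP members in every group. It measured 1.94 to 12.3 TPM in N, 0.213 to 16.8 TPM in E, 1.89 to 2.43 TPM in Y and 3.02 to 11.8 TPM in EY. All EY mice were above all Y mice, while every EY value lay within the N range. The log2 difference was 1.63 (-0.26 to 3.52, limma adjusted p 0.284) in EY against Y and 0.43 (-1.19 to 2.05) in EY against N, where it became -0.15 with N mice 1 to 3 alone and 0.76 without N mouse 1.

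Mmp14 is the membrane-anchored member, a collagenase at the cell surface that also activates other MMP zymogens, and it was the most abundant member in each group. It measured 28.0, 24.3, 16.7, 12.6 and 11.7 TPM in N mice 1 to 5 and 22.0, 15.3, 14.9, 19.7 and 17.5 TPM in E mice 1 to 5. The Y mice had 25.4, 24.8 and 29.5 TPM. The EY mice had 26.0 to 36.2 TPM with a median of 30.4 TPM. All EY mice were above all E mice and 5 of 6 above all N mice, with N mouse 1 reaching into the EY range. The mean was 18.6 ± 7.25 TPM (SD, n = 5) in N and 30.6 ± 3.40 TPM (SD, n = 6) in EY.

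For Mmp14 the log2 fold change in EY was 0.79 against N (0.38 to 1.20, limma adjusted p 0.00291) and 0.78 against E (0.38 to 1.19, limma adjusted p 0.00392). Both passed the limit on p and not that on the fold change, so Mmp14 was not called. Against the median of all genes, 0.33 in EY against N, the difference is smaller, and with N mice 1 to 3 alone it was 0.44 (the limma adjusted p ranged from 0.000300 to 0.0986 over the alternatives). In Y against N it was 0.59 (0.10 to 1.08, limma adjusted p 0.0963), and in E against N 0.01 (-0.42 to 0.43).

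The inhibitors are secreted proteins that block MMPs, and Timp3 is bound to the matrix and also blocks ADAM proteases. Timp3 measured 1.36, 0.906, 1.29, 0.180 and 0.158 TPM in N mice 1 to 5 and 0.111, 0.105, 0.0537, 0.109 and 0.6253 TPM in E mice 1 to 5. In Y it was 2.11, 3.58 and 1.99 TPM. In EY it ran from 1.25 to 7.36 TPM with a median of 3.21 TPM. The Y mice were all above all N mice, the EY mice were all above all E mice and 5 of 6 above all N mice, and 4 of 5 E mice were below all N mice. Within N, the 3 mice with Krt14-CreERT and LSL-rtTA were above both mice that lack Cre or rtTA, as they also were for Mmp3 and Mmp14.

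Timp3 was called higher in EY than in E, at a log2 fold change of 3.65 (2.43 to 4.88, limma adjusted p 8.73e-05). It was also called against N, at 2.22 (0.99 to 3.44, limma adjusted p 0.00491), a call that depended on the samples and the scaling. With N mice 1 to 3 alone the value was 1.32 and not called (limma adjusted p 0.0845, range over the alternatives 0.00299 to 0.0845). The call was also lost without N mouse 4 (1.90), N mouse 5 (1.87), EY mouse 3 (1.97), EY mouse 5 (2.13) or EY mouse 6 (2.03), with median-of-ratios scaling (1.89) and with only the N and EY mice in the fit (2.22). In Y against N it was 1.92 (0.44 to 3.39, limma adjusted p 0.0727) and in E against N -1.44 (-2.72 to -0.16, limma adjusted p 0.262), and neither was called. EY and Y differed by 0.30 (-1.13 to 1.73).

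Timp1, an inhibitor of most secreted MMPs, had 0.486 to 6.36 TPM in N, 0.293 to 3.98 TPM in E, 0.316 to 2.00 TPM in Y and 0.432 to 5.24 TPM in EY. The groups overlapped in every comparison. The log2 difference of EY from N was -0.06 (-1.69 to 1.58), and it was 0.42 without N mouse 1 and -0.57 with N mice 1 to 3 alone.

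**Figure D2:**
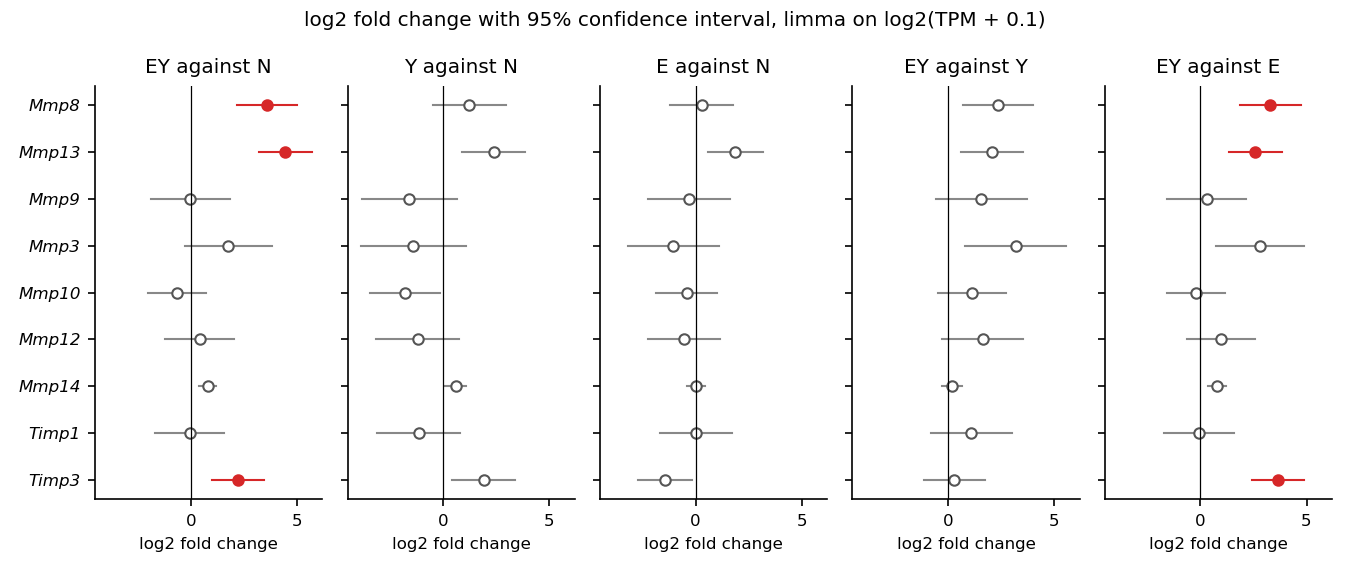
Log2 fold change (horizontal axes) of each member in 5 comparisons between groups, as points with 95% confidence intervals, filled in red where the gene was called. Calls appear in EY against N and EY against E, where Mmp8, Mmp13 and Timp3 were higher.

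In EY against N, 3 of 9 members were called higher and 0 lower, where 12.6% of all genes tested were called higher, 5.71% lower and 18.3% in either direction. The median log2 fold change was 0.79 for the members and 0.33 for all genes. In EY against E, 3 of 9 were called higher, beside 7.82% of all genes, and 0 lower, beside 4.99%, with medians of 0.97 and 0.26. For the 0 members called lower, limma voom on reads also called 0 in each of these comparisons, and an unadjusted p below 0.05 in either direction was reached by 4 members against N, beside 48.6% of all genes, and by 5 against E, beside 43.6%.

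In Y against N, limma called 0 of 9 members in either direction, beside 3.47% of all genes higher, 1.11% lower and 4.58% in either direction. An unadjusted p below 0.05 was reached by 4 members, beside 28.9% of all genes, and limma voom called 0. The median was -1.15 for the members and 0.13 for all genes. In E against N, limma called 0 of 9, beside 1.16% of all genes higher and 0.044% lower, with 2 members at an unadjusted p below 0.05, beside 14.8% of all genes, and 0 by limma voom. Medians were -0.30 and 0.07. In EY against Y, limma called 0 of 9, beside 1.07% of all genes higher and 0.928% lower, 3 members had an unadjusted p below 0.05, beside 23.9% of all genes, and limma voom called 0. Medians were 1.58 and 0.18. The comparisons against N share the N mice, and those of EY share the EY mice, so their values are not independent.

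Whether both transgenes together differ from the sum of each was tested as an interaction. Limma called 0 of 9 members, beside 0.00879% of all genes higher and 0.167% lower, with 1 member at an unadjusted p below 0.05, beside 13.5% of all genes, and limma voom called 0. That member was Mmp3, at a log2 interaction of 4.22 (1.00 to 7.44, limma adjusted p 0.223), which was 3.58 without N mouse 1, 3.75 without EY mouse 3 and 5.20 without Y mouse 1, with 3.58 to 5.20 the whole range when 1 mouse is left out. It was 1.96 with a pseudocount of 1 TPM and 6.11 with 0.01 TPM. For Mmp8 the interaction was 2.07 (-0.15 to 4.29, and 1.12 to 2.74 with 1 mouse left out), for Timp3 1.74 (-0.18 to 3.65) and for Mmp13 0.21 (-1.74 to 2.16), the last of which changed sign between scalings. A gene past the threshold with both transgenes and below it with either alone is therefore not shown to respond differently to them.

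Summed over the 7 MMP members, N mice 1 to 5 had 53.4, 39.5, 20.9, 15.8 and 17.6 TPM and E mice 1 to 5 had 35.4, 22.9, 19.7, 20.8 and 39.2 TPM. The Y mice had 30.5, 28.3 and 36.1 TPM, and the EY mice 43.5 to 69.8 TPM with a median of 50.9 TPM. All EY mice were above all E and Y mice, and N mouse 1 was within the EY range. The share of Mmp14 in this sum was 81.8% to 87.8% for Y mice and 51.1% to 65.4% for EY mice, beside 52.6% to 79.7% for N mice and 44.5% to 94.7% for E mice. The 6 secreted MMP members alone summed to 3.20 to 25.3 TPM in N, 1.10 to 21.7 TPM in E, 3.46 to 6.56 TPM in Y and 16.7 to 33.6 TPM in EY. The pair of Timps summed to 0.644 to 7.72 TPM in N, 0.402 to 4.60 TPM in E, 2.43 to 4.00 TPM in Y and 2.03 to 12.6 TPM in EY.

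**Figure D3:**
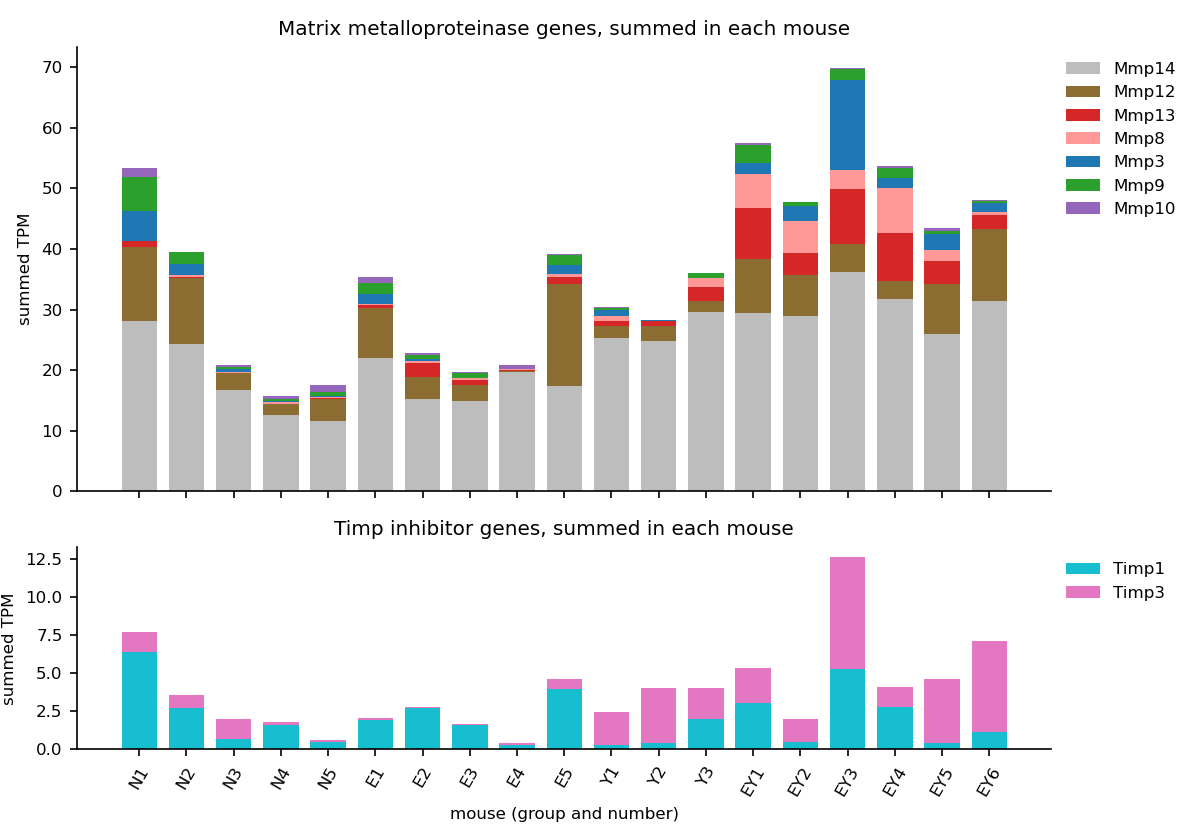
Summed level in TPM (vertical axes) of the 7 MMP members and of the Timps in each mouse (stacked bars, 1 color per gene) of the N, E, Y and EY groups. Mmp14 is the largest part of the MMP bar in every mouse, and the EY bars reach 43.5 to 69.8 TPM.

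The order of the levels differed between groups. In N, by mean TPM, it ran Mmp14, Mmp12, Timp1, Mmp9, Mmp3, Timp3, Mmp10, Mmp13 and Mmp8. In EY it ran Mmp14, Mmp12, Mmp13, Mmp3, Mmp8, Timp3, Timp1, Mmp9 and Mmp10, so that Mmp13 and Mmp8 moved from the last places to places 3 and 5. In each group Mmp14 exceeded the next member by more than the SD of either, and in every group each later member differed from the next in that order by less than the larger SD of both.

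Within groups, mice that were high in some members were high in others. The Pearson r of the deviations of log2 levels from the group means, over 19 mice, was 0.83 between Mmp9 and Mmp13, 0.80 between Mmp9 and Timp1 and 0.80 between Mmp13 and Timp1. The lowest r of a pair of members was -0.47, between Mmp8 and Timp3. Among 15604 genes with a mean of at least 1 TPM, those most like each member by the same measure were Steap4 (0.92) and St3gal1 (0.89) for Mmp13, Stfa2 (0.82) and A330041J22Rik (0.81) for Mmp8, and Cd300lf (0.88) and C5ar1 (0.88) for Mmp9. For Mmp12 they were Ccl9 (0.92) and Fmnl1 (0.92), for Mmp3 Grina (0.85) and Vsir (0.85), and for Mmp10 Gm5559 (0.76) and Gm10643 (0.75). For Mmp14 they were Tmc6 (0.90) and Pcgf2 (0.86), for Timp1 Lgals1 (0.85) and Mmp9 (0.80), and for Timp3 Gtf2ird2 (0.91) and Tsc1 (0.85). These values describe 19 mice, which also differ in the cells sampled, and were not tested. The like genes were picked for the highest r among 15604, which by itself raises r. How high r would reach from picking alone was not tested.

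The table holds 15 other genes named Mmp or Timp, 13 and 2 of them, of which 14 were tested and Mmp16 was not. In EY against N, 2 of 14 were called higher, beside 12.6% of all genes, and 2 lower, beside 5.71%. Mmp1b, a cluster neighbour listed at 0 in all N mice, had 0.149 to 0.389 TPM in EY and at most 0.0981 TPM in the other groups. It reached the 0.1 TPM of the filter in EY mice alone, so it was tested only through the group where it is high. It was called higher against N, Y and E and is in the counts given here, but these calls are not taken as support for a change. Mmp25, a membrane-anchored enzyme of leukocytes, was called higher at a log2 fold change of 1.61 (limma adjusted p 0.00309), at 0.236 to 0.892 TPM in EY. Mmp15, another membrane-anchored MMP, was called lower at -1.26 (limma adjusted p 0.00357), and so was Mmp28, the epilysin of epithelia, at -1.004 (limma adjusted p 0.00338). In EY against E, 2 were called higher, Mmp1b and Mmp11 (1.39), beside 7.82% of all genes, and 2 lower, Mmp28 (-1.11) and Timp2 (-1.29), beside 4.99%. In EY against Y, Mmp1b, tested only through EY, was the only one called, beside 1.07% of all genes higher. In Y against N, E against N and the interaction limma and limma voom both called 0 of 14, with 4, 2 and 1 at an unadjusted p below 0.05, beside 28.9%, 14.8% and 13.5% of all genes.

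MMP zymogens are opened by other proteases, of which 9 were listed and 5 tested. In EY against N, 1 was called higher, beside 12.6% of all genes, and 1 lower, beside 5.71%. The median was 0.75 for the list and 0.33 for all genes. Plat, tissue plasminogen activator, measured 0.274 to 1.79 TPM in N, 0.426 to 1.93 TPM in E, 3.19 to 10.3 TPM in Y and 6.31 to 24.5 TPM in EY. Its log2 fold change was 4.69 in EY and 3.28 in Y against N, both called. Pcsk6, a proprotein convertase, was called lower in EY at -1.10. Plau, urokinase, was the most abundant of the list, and its change of 0.90 was not called (limma adjusted p 0.0274). Of the further inhibitors Timp2, Timp4 and Reck, limma called 0 of 3 in EY against N, beside 18.3% of all genes. Limma voom called 1 lower. An unadjusted p below 0.05 was reached by 2, 1 higher and 1 lower, beside 48.6% of all genes. The median was -0.09, beside 0.33 for all genes. Timp2, the most abundant, stood at -1.04 (limma adjusted p 0.0151).

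AP-1 and Ets proteins are factors that act on many MMP promoters, and 11 were listed and tested. In EY against N, 1 was called higher, beside 12.6% of all genes, and 2 lower, beside 5.71%, with a median of -0.06. Ets1 rose from 0.085 to 0.328 TPM in N to 1.56 to 2.68 TPM in EY, a log2 fold change of 2.84. Fosb and Fos were called lower at -2.20 and -1.87. Jund, the most abundant, stood at -0.26 and was not called. In Y against N, Ets1 was the only one called, at 1.81, beside 3.47% of all genes called higher, and limma voom also called 1.

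Of the related ADAM and ADAMTS proteases, 12 were listed and 10 tested. In EY against N 3 were called higher, beside 12.6% of all genes, with a median of 0.51. Limma and limma voom called 0 of them lower, with 1 lower at an unadjusted p below 0.05. Those called higher were Adam8 (2.69), Adamts1 (2.14) and Adamts4 (1.95). The first pair were also called in Y against N, at 1.64 and 1.55, beside 3.47% of all genes called higher. Adam15, the most abundant, stood at -0.80 and was not called. Of 5 cell surface partners of MMPs, Itgb1 was called higher at 1.39 and Itga2 lower at -1.05, beside 12.6% and 5.71% of all genes. The median was 0.52, and Bsg, an inducer of MMPs also named basigin and the most abundant, stood at 0.93 and was not called. Together these 5 lists of proteases, inhibitors, factors and partners hold 34 genes tested. Limma called 6 higher and 4 lower in EY against N, beside 12.6% and 5.71% of all genes, and 6 higher and 4 lower in EY against E, beside 7.82% and 4.99%. In Y against N limma and limma voom called 4 higher, beside 3.47% of all genes, and 0 lower, beside 1.11%, with 4 lower at an unadjusted p below 0.05. In E against N limma and limma voom called 0 of 34, with 4 at an unadjusted p below 0.05, beside 14.8% of all genes, and in the interaction both called 0, with 10 at an unadjusted p below 0.05, beside 13.5%. In EY against Y limma called 0 and limma voom 2, with 11 at an unadjusted p below 0.05, beside 23.9%.

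Markers of the cells that can make MMPs were read in the same mice. In a bulk sample, fewer cells of a type and less RNA per cell cannot be told apart. Of 12 neutrophil markers 11 were tested, and 4 were called higher in EY against N, beside 12.6% of all genes. These were S100a9 (4.80), S100a8 (4.75), Cd177 (2.09) and Ly6g, the last pair of which passed the filter only through EY mice. The median was 2.09 for the list and 0.33 for all genes. In EY against Y limma called 1 higher, Ly6g, a gene tested only through EY mice, beside 1.07% of all genes. Limma voom called 0, and the median was 0.97. Limma and limma voom called 0 lower, with 0 lower at an unadjusted p below 0.05. S100a8, the most abundant, and S100a9 are also made by stressed keratinocytes. The summed level was 78.7, 33.2, 16.3, 11.7 and 12.4 TPM in N mice 1 to 5 and 33.9, 87.0, 50.2, 5.86 and 40.3 TPM in E mice 1 to 5. It was 770, 964 and 547 TPM in Y mice and 803, 608, 675, 1040, 283 and 83.9 TPM in EY mice 1 to 6. Most of the sum came from S100a8 and S100a9 in all mice but N mice 2 and 3. In Y mice S100a8 measured 471, 653 and 363 TPM and S100a9 283, 306 and 157 TPM, and in EY mice they ranged from 61.0 to 659 TPM and from 21.1 to 257 TPM. Retnlg measured 10.8, 0 and 21.2 TPM in Y mice and 53.4, 51.0, 25.2, 99.7, 9.48 and 0 TPM in EY mice 1 to 6. It was not called in EY against N (log2 fold change 5.49, limma adjusted p 0.0143). Ngp (2.94), Cxcr2 (2.07), Csf3r (1.40), Ltf (0.64), Mpo (0.61) and Camp (-0.46) were not called in EY against N either.

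Ly6g, a defining marker of neutrophils, was at 0 in all N, E and Y mice and in EY mouse 6, and measured 1.20, 0.432, 0.528, 2.31 and 1.36 TPM in EY mice 1 to 5. It reached the 0.1 TPM of the filter in EY mice alone, so it was tested only through the group where it is high. Its log2 fold changes depend on the pseudocount, and its calls are not taken as support for a change. Cd177 reached 0.1 TPM in Y mice 1 and 3 and EY mice 1 to 4, so it passed the filter of 3 mice only through EY. Its call is not taken as support either. EY mouse 6 also had the lowest Mmp8 and the lowest neutrophil sum of its group. Retnlg was at 0 in 7 mice, Cd177 in 10 and Mpo in 13. The part of neutrophils in the levels of Mmp8 and Mmp13 was not tested.

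**Figure D4:**
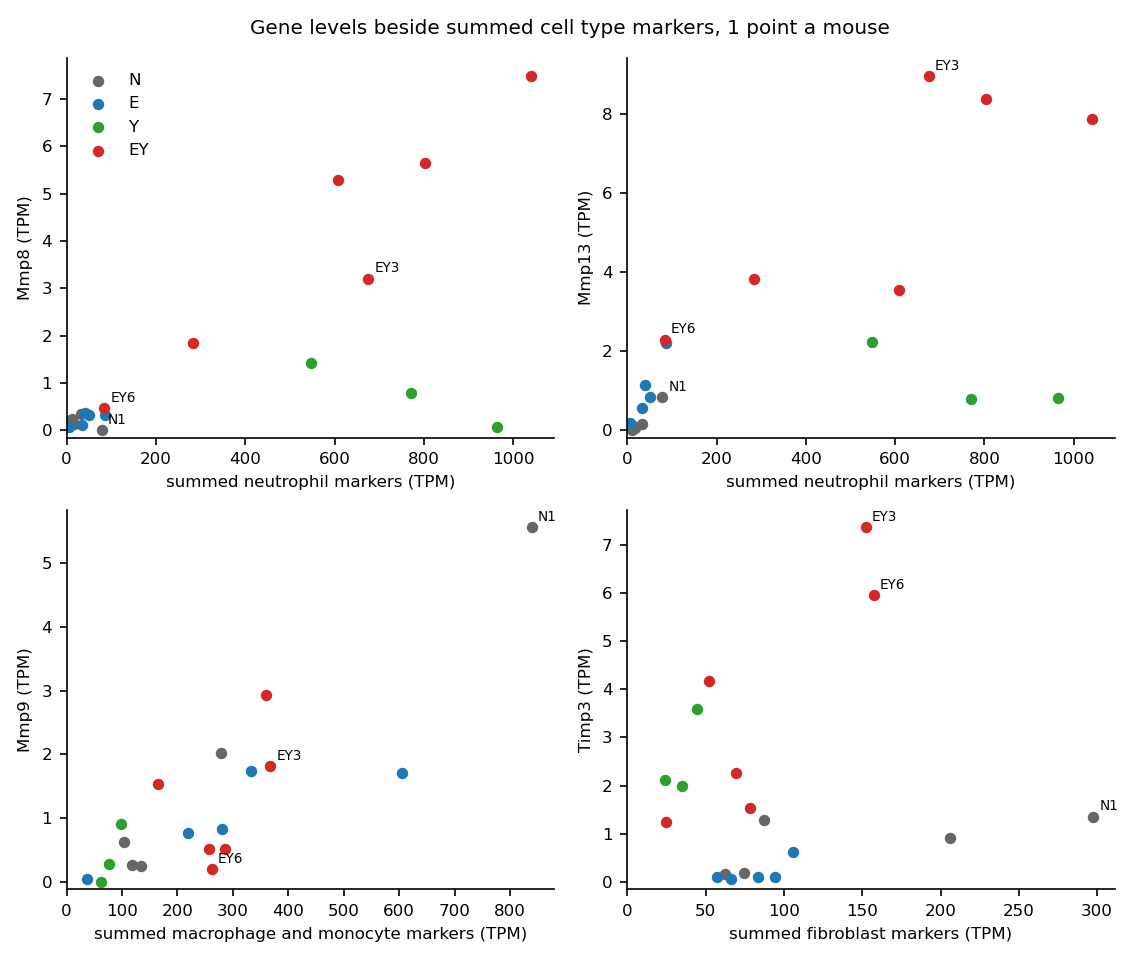
Level of Mmp8 and Mmp13 against the summed neutrophil markers, of Mmp9 against the summed macrophage markers and of Timp3 against the summed fibroblast markers, all in TPM, with 1 point per mouse colored by group. S100a8 and S100a9 make up most of the neutrophil sum in all mice but N mice 2 and 3. N mouse 1 lies at the highest macrophage sum with the highest Mmp9.

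Of 10 macrophage and monocyte markers, limma and limma voom called 0 in EY against N, with 3 at an unadjusted p below 0.05, beside 48.6% of all genes, and a median log2 fold change of 1.19, beside 0.33. In EY against E limma called 1 higher, Mrc1 at 1.86 (limma adjusted p 0.00452), beside 7.82% of all genes. In EY against Y limma and limma voom called 0. At an unadjusted p below 0.05, 6 of 10 were higher, beside 23.9% of all genes in either direction. The median was 1.78, beside 0.18 for all genes. Their sum was 839, 278, 135, 118 and 103 TPM in N mice 1 to 5 and 333, 218, 280, 36.9 and 605 TPM in E mice 1 to 5. It was 77.1, 62.2 and 97.9 TPM in Y mice and 360, 256, 367, 166, 285 and 262 TPM in EY mice 1 to 6. Lyz2 was the most abundant, and the defining Csf1r, Adgre1 and Cd68 were above 0 in every mouse. The mice with the highest Mmp12 in N and E, N mouse 1 and E mouse 5, had the highest macrophage sums of their groups, and E mouse 4 had the lowest of both. In EY the highest Mmp12, 11.8 TPM, was in mouse 6 and the highest macrophage sum in mouse 3, where Mmp12 measured 4.71 TPM. The part of macrophages in Mmp9, Mmp12 and Timp1 was not tested.

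Of 7 fibroblast markers limma called 1 lower in EY against N, beside 5.71% of all genes. This was Dcn, the most abundant, at -2.36. The other 6 had positive log2 fold changes that were not called, and the median of the list was 0.45 beside 0.33 for all tested genes. Limma and limma voom called 0 higher, beside 12.6% of all genes by limma, with 0 higher at an unadjusted p below 0.05. In EY against Y both called 0, with 4 of 7 higher at an unadjusted p below 0.05, beside 23.9% of all genes in either direction, and a median of 2.02, beside 0.18. The sum was 298, 206, 87.1, 74.2 and 62.2 TPM in N mice 1 to 5 and 94.5, 83.4, 66.4, 57.3 and 106 TPM in E mice 1 to 5. It was 24.3, 44.6 and 34.8 TPM in Y mice and 69.4, 78.7, 152, 25.1, 52.0 and 157 TPM in EY mice 1 to 6. All 7 were above 0 in every mouse. The Y mice had lower fibroblast sums than all N and E mice and Mmp14 and Timp3 levels above the N medians, and the part of fibroblasts in these levels was not tested.

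Of 5 skeletal muscle markers limma and limma voom called 0 in EY against N, with 0 at an unadjusted p below 0.05, beside 48.6% of all genes. The median log2 fold change was 1.78, beside 0.33 for all genes. In EY against E and in EY against Y limma and limma voom also called 0. In each, 4 of 5 were higher at an unadjusted p below 0.05, beside 43.6% and 23.9% of all genes in either direction. Median log2 fold changes were 2.29 and 2.72, beside 0.26 and 0.18. Their sum was 55.1, 227, 10.9, 36.9 and 48.2 TPM in N mice 1 to 5 and 34.6, 28.3, 28.7, 11.3 and 125 TPM in E mice 1 to 5. It was 7.20, 131 and 16.5 TPM in Y mice and 181, 68.9, 1194, 32.5, 204 and 134 TPM in EY mice 1 to 6, with Acta1 the most abundant. EY mouse 3, highest in this sum, was also highest in Mmp3, Mmp13, Mmp14 and Timp3, and the part of underlying tissue in these values was not tested.

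The remaining lists were low, apart from the epithelium. In EY against N, where 12.6% of all genes were called higher and 5.71% lower, 1 of 4 T cell markers was called higher, Cd3d at 2.75, and the sum, led by Trac, was 0.224 to 3.28 TPM in N, 0.244 to 3.48 TPM in E, 1.05 to 3.38 TPM in Y and 3.91 to 7.17 TPM in EY. Of 3 endothelial markers tested, limma and limma voom called 0, with 0 at an unadjusted p below 0.05, beside 48.6% of all genes. Their median was 0.64, beside 0.33 for all genes. The endothelial sum, led by Pecam1, was at most 0.956 TPM in N, 0.894 TPM in E, 0.293 TPM in Y and 3.17 TPM in EY. Of 4 mast cell markers limma and limma voom called 0, with 0 at an unadjusted p below 0.05, beside the same 48.6%. Their median was 0.15, beside 0.33 for all genes. The mast cell sum, led by Mcpt4, was at most 7.69 TPM, and Mcpt4 was at 0 in 10 mice. Of 7 markers of oral epithelium, Epcam (1.85), Krt14 (1.43) and Cdh1 (1.16) were called higher and Krt13 (-1.75) and Krt4 (-1.61) lower, with a median of 0.98, none was at 0 in any mouse, and the sum, led by Krt13, was 70592 to 138152 TPM in N and 43826 to 60275 TPM in EY. Limma and limma voom called 0 in EY against Y among the T cell, endothelial and mast cell markers, with 2 of 4, 1 of 3 and 0 of 4 at an unadjusted p below 0.05, beside 23.9% of all genes. Markers of the labelled tissue were thus present in every mouse. The part of these cells in the levels of the members was not tested.

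**Figure D5:**
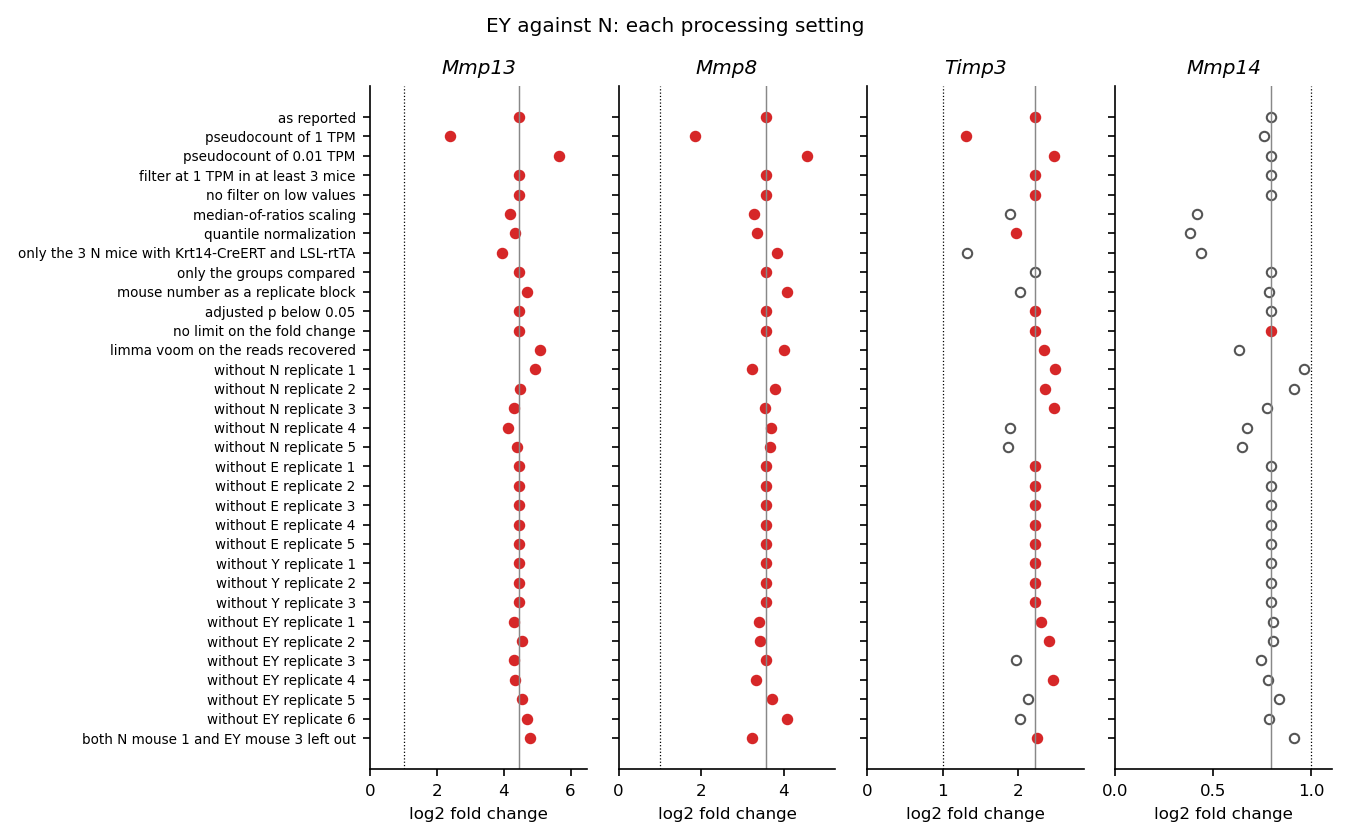
Log2 fold change of Mmp13, Mmp8, Timp3 and Mmp14 in EY against N (horizontal axes) under each setting of the processing (vertical axis), filled where the gene was called, with a dotted line at a log2 fold change of 1. Mmp13 and Mmp8 were called under every setting shown, Timp3 under some of them, and Mmp14 lies below the line throughout, filled only where no limit was set on the fold change.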

How the data were processed

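PolyA RNA of tongue epithelium was read from 19 mice. The authors aligned reads to GRCm39 (STAR 2.7.9, SAMtools 1.7), counted them with HTSeq 0.13.5, tested them with DESeq2 1.34.0 and deposited levels as TPM, and how counts became TPM is not stated in the sources used here. Of 24689 genes, those that reached 0.1 TPM in 3 or more mice, 22745 in number, were fitted with limma 3.58.1 in R 4.3.3 (lmFit, eBayes with trend) on log2(TPM + 0.1), with 1 mean for each group and no covariate. Calls required p below 0.01 after Benjamini-Hochberg adjustment and a log2 fold change past 1 or -1. Whole reads were recovered from the steps of the TPM, 8269674 to 11007304 per mouse, for depth and for limma voom. Other pseudocounts, filters, scalings, thresholds, subsets of mice, a replicate block and leaving out each mouse were tried. Both N mice that lack Cre or rtTA were kept. Genes named are all members, every other Mmp or Timp gene called, up to 4 called genes and the most abundant one of each list, and the pair most like each member. Cdh1 of the epithelium list, the neutrophil markers that were not called, and the defining macrophage markers were named after their values were seen. A further list, of matrix proteins, is not reported here. Members and lists were chosen with earlier results of these data known. Promoters are those of RefSeq (GRCm38.p6). Python 3.11.15 with pandas 2.3.3, numpy 2.4.6 and matplotlib 3.10.9 was used for the rest. The other data types of the study were not used here.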

Additional observations from a re-analysis of the deposited data

Results flagged for a closer look

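Of 39 sets of values from groups of 5 or 6 mice (9 members and 4 marker sums in N, E and EY), 7 had a mouse far from the rest of its group. A mouse counted when its gap to the next value was a large part of the range (Dixon's test on TPM). The limit gives about 1 in 20 by chance for normal values, and whether TPM values are normal was not tested. All 7 were the highest of their group, and the sets share mice, so they are not independent. Mmp3 was 14.75 TPM in EY mouse 3, Mmp13 was 0.8428 TPM in N mouse 1, and Timp3 was 0.6253 TPM in E mouse 5, each the highest of its group by a wide gap. The summed macrophage markers were 839.4 TPM in N mouse 1. The summed skeletal muscle markers were 226.6 TPM in N mouse 2, 124.7 TPM in E mouse 5 and 1194 TPM in EY mouse 3. The causes were not tested. The 3 mice of Y were too few for this comparison.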

How the results depend on the processing

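Of 1719 recomputed fold changes of members, 1643 kept their direction and their side of the threshold, 10 lost a call, 6 gained one and 60 changed sign, all 60 among fold changes that were not called. There were 13 alternatives that leave out no mouse alone and 19 that leave out 1 mouse each. In EY against N, Mmp13 was called in all of them, at 2.38 to 5.65, and so was Mmp8, at 1.86 to 4.57. In EY against E, Mmp8 and Timp3 were called in all of them. The median of all genes in EY against N was 0.33 on TPM, 0.01 with median-of-ratios scaling, 0.04 with quantile normalization and 0.20 with limma voom on the reads recovered.

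Timp3 in EY against N lost its call with median-of-ratios scaling (1.89), N mice 1 to 3 alone (1.32), only N and EY mice in the fit (2.22), a replicate block by mouse number (2.03), and without N mouse 4 or 5 or EY mouse 3, 5 or 6 (1.87 to 2.13). Mmp13 in EY against E lost its call at a pseudocount of 0.01 TPM (2.77). Mmp13 in Y against N was called at an adjusted p below 0.05, without N mouse 1 (2.87) and with both N mouse 1 and EY mouse 3 left out, an alternative chosen after seeing the data. Members called in Y against N were then 1 in each. Mmp3 in EY against E was also called at an adjusted p below 0.05, and Mmp14 in EY against N and E with no limit on the fold change. The block assumes that equal numbers pair mice, while the 24 pairs with equal numbers had r of -0.05 to 0.08.

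Genes called among all tested were 1042 in Y against N, 274 in E against N, 454 in EY against Y and 40 in the interaction. At an adjusted p below 0.05 they were 1599, 414, 865 and 148. With no limit on the fold change they were 7248 in EY against N (4157 with it), 1935 in Y against N, 803 in EY against Y and 5746 in EY against E (2914 with it). With only the groups compared, so fewer mice in the fit, they were 555 in Y against N, 145 in E against N and 198 in EY against Y, and the interaction has no such fit. With N mice 1 to 3 alone they were 656 in Y against N, and limma voom called 118 in the interaction. Leaving out 1 mouse gave 639 to 1039 in Y against N, 200 to 496 in EY against Y, 28 to 73 in the interaction, and 0 to 1 members in Y against N.

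Fold changes that changed sign were these. Pseudocount of 0.01 TPM: Mmp9 in EY against N 0.0157 and the Mmp13 interaction -0.71. Median-of-ratios scaling, in E against N: Mmp14 -0.10 and Timp1 -0.0841. Quantile normalization: Mmp14 -0.13 and Timp1 -0.0157 in E against N and the Mmp13 interaction -0.19. Limma voom: Mmp14 -0.0141 and Timp1 -0.0001 in E against N and the Mmp13 interaction -0.52. N mice 1 to 3 alone: Mmp14 -0.35, Timp1 -0.50 and Mmp10 0.0094 in E against N and Mmp12 -0.15 in EY against N. Replicate block: Mmp9 0.34 and Timp1 0.0184 in EY against N and Timp1 0.0039 in EY against E. Both N mouse 1 and EY mouse 3 left out: Mmp9 0.42 and Timp1 0.0831 in EY against N, Mmp8 -0.0611 and Mmp9 0.31 in E against N, and interactions of -0.44 for Mmp13 and -0.0271 for Mmp14.

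Leaving out 1 mouse at a time, the ranges were -0.54 to 0.14 for Mmp10 in EY against E, -1.12 to 0.32 for Mmp12 in E against N, -0.29 to 0.66 for the Mmp13 interaction, -0.14 to 0.18 for Mmp14 in E against N, -0.0611 to 0.51 for Mmp8 in E against N, -0.68 to 0.33 for Mmp9 in E against N, -0.34 to 0.65 for Mmp9 in EY against E, and -0.39 to 0.61 for Mmp9 in EY against N. For Timp1 they were -0.37 to 0.55 in E against N, -0.60 to 0.25 in EY against E and -0.44 to 0.42 in EY against N. Where the construction of an alternative (fewer mice, another threshold) does not give the reason, the cause was not tested.

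Depth limits Mmp8, Mmp10, Timp1 and Mmp13, with 16 or fewer reads in a median mouse. Y has 3 mice. Sums of markers are from whole tissue, and cell types were not separated. Both N mice without Cre or rtTA had lower Timp3, Mmp3 and Mmp14 than the other N mice, and genotype and mouse cannot be told apart with 1 mouse of each.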
